A study of Mus musculus with 20 samples.

Results

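*Il4i1*, *Slc7a2*, *Nos2*, *Gch1*, *Ass1* and *Acod1* are genes of macrophage amino acid and itaconate metabolism. They were chosen by name as enzymes or transporters of arginine, aromatic amino acid and itaconate metabolism, and each was found under its symbol among the 24888 genes measured. Earlier results of these data were known when they were chosen. The study measured chromatin-associated RNA, the RNA still attached to chromatin while it is being made, in bone-marrow-derived macrophages (BMDMs). The cells came from male mice aged 8 to 10 weeks according to the methods and the animal entry of the reporting summary (its randomization entry gives 10 to 12 for RNA-seq), either WT C57BL/6 or *Rel*-/- on the C57BL/6 background, which lack the NF-κB subunit Rel. Marrow of several mice was pooled for an experiment, and cells were grown for 6 days with CMG-conditioned medium. They were left unstimulated (0 h) or given lipid A, an agonist of Toll-like receptor signalling, for 0.5, 1, 2 or 6 h, with 2 biological replicates in each of the 10 groups, 20 libraries in all.

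Macrophages exposed to bacterial products take up arginine and convert it by inducible nitric oxide synthase to nitric oxide and citrulline, a reaction that needs the cofactor tetrahydrobiopterin. Citrulline can be turned back into arginine. In the same cells a decarboxylase draws on the citric acid cycle to make itaconate, and a secreted oxidase, *Il4i1*, breaks down aromatic amino acids to products that include ligands of the aryl hydrocarbon receptor.

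Depth ranged from 21094000 to 37398000 reads among the WT libraries and from 27478000 to 45439000 among the libraries labelled *Rel*-/-. Values are in RPKM, reads per kilobase of the whole gene span, scaled to depth, so levels of different genes are compared per length. The floor was set at 3 reads. Over the *Rel* gene (NM_009044, chromosome 11 of NCBIM37, 23641729 to 23670970), WT replicates 1 and 2 had 1.32 and 2.76 RPKM at 0 h, 7.48 and 20.05 at 0.5 h, 10.3 and 18.0 at 1 h, 9.74 and 11.99 at 2 h, and 3.95 and 7.33 at 6 h. The corresponding libraries labelled *Rel*-/- had 2.00 and 2.79, 10.5 and 15.0, 15.6 and 16.2, 9.24 and 9.96, and 4.22 and 4.91 RPKM. The genotypes overlapped in *Rel* reads at each time point, so the reads over *Rel* do not check the labels.

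The WT time course of replicate 1 stood apart from the others. *Rn45s*, the ribosomal RNA precursor, held 11.0 to 17.9% of its gene reads, against 2.42 to 4.55% in WT replicate 2, 3.48 to 6.00% in replicate 1 and 1.56 to 2.90% in replicate 2 of the libraries labelled *Rel*-/-. Several results are therefore also given without it. Of 11 macrophage markers listed, 10 were in the table (not *Emr1*) and 9 had a mean over 1 RPKM. Their summed level was 60.5 to 110 (110.4) RPKM in WT replicate 1, 83.9 to 215 (214.6) in WT replicate 2, 75.9 to 174 in replicate 1 and 79.6 to 149 (148.5) in replicate 2 of the libraries labelled *Rel*-/-. The most abundant macrophage marker was *Cd14* at 19.7 RPKM (4.24 to 83.0).

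Markers of other cell types were low, as sums over each list in every library. Dendritic cell markers (7 listed) summed to 0.107 to 1.01 RPKM, with *Clec9a* the most abundant at 0.144 RPKM and *Cd209a* at the floor. This sum was higher in both libraries labelled *Rel*-/- than in both WT libraries at 1 h (0.482 and 0.477 against 0.177 and 0.265 RPKM) and 2 h (0.217 and 0.279 against 0.201 and 0.202), and it overlapped at 0, 0.5 and 6 h. The 6 B cell markers summed to 0.575 to 5.99 RPKM, nearly all of it *Blnk* at a mean of 2.25 RPKM, with both libraries labelled *Rel*-/- above both WT libraries at 1 h (2.76 and 3.32 against 2.57 and 2.67) and below them at 6 h (0.641 and 0.796 against 2.72 and 1.34). T and NK cell markers (7 listed, 6 at the floor) summed to 0.0291 to 0.338 RPKM, with *Cd4* at 0.0521 RPKM. The 7 neutrophil markers summed to 0.107 to 0.982 RPKM, with *S100a8* at 0.181 RPKM and *Ly6g*, *Elane* and *Camp* at the floor. This neutrophil sum was 0.423 to 0.982 RPKM in WT replicate 2 and 0.107 to 0.295 RPKM in WT replicate 1, and its part in the results was not tested. Mast cell and basophil markers were all 5 at the floor, with sums of 0.0337 to 0.0747 RPKM and *Tpsb2* at 0.0183 RPKM, and both WT sums were the higher ones at 0, 1 and 6 h. Values at the floor may stand for no measured read, so the order of the mast cell and basophil sums is not interpreted. Erythroid markers (6 listed) summed to 0.0997 to 0.458 RPKM with *Alas2* at 0.0703 RPKM, higher in both WT libraries at 1 h (0.173 and 0.112 against 0.0997 and 0.104) and 6 h (0.188 and 0.165 against 0.134 and 0.163). Fibroblast markers (6 listed) summed to 0.0173 to 0.232 RPKM with *Pdgfrb* at 0.0459 RPKM. The fibroblast sum was higher in both WT libraries than in both libraries labelled *Rel*-/- at 1 h (0.102 and 0.170 against 0.0342 and 0.0508 RPKM), 2 h (0.126 and 0.151 against 0.0209 and 0.0295) and 6 h (0.0952 and 0.232 against 0.0173 and 0.0444), lower in both at 0 h (0.0181 and 0.0198 against 0.0302 and 0.0460), and it overlapped at 0.5 h. Most of the WT sum at 1, 2 and 6 h was *Pdgfrb*, with 81 and 190 reads at 1 h. The part of these marker sums in the results was not tested. Fewer cells making an RNA and less of it per cell cannot be told apart in these bulk libraries.

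The members differed widely in level, and their order changed over the time course. In WT at 0 h the order of mean levels was *Acod1* (2.90 RPKM), *Gch1* (1.46), *Il4i1* (0.473), *Ass1* (0.201), *Nos2* (0.114) and *Slc7a2* (0.0794). *Acod1* and *Gch1* overlapped there between replicates, as did *Nos2* with each of *Ass1* and *Slc7a2*. At 1 h *Il4i1* stood second at 11.7 RPKM, below *Acod1* at 99.7 and above *Gch1* (4.89), *Slc7a2* (2.80) and *Nos2* (2.20), the last 3 of which overlapped. By 6 h WT libraries had *Acod1* at 146.0 RPKM and *Nos2* at 61.9, then *Gch1* (5.05), *Slc7a2* (4.62), *Ass1* (2.71) and *Il4i1* (2.45), each of which overlapped the next. In the libraries labelled *Rel*-/- at 6 h the order was *Acod1* (204.9 RPKM), *Nos2* (142.5), *Gch1* (5.78), *Slc7a2* (5.26), *Ass1* (2.77) and *Il4i1* (0.387), with overlap between *Gch1* and *Slc7a2*.

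**Figure D1:**
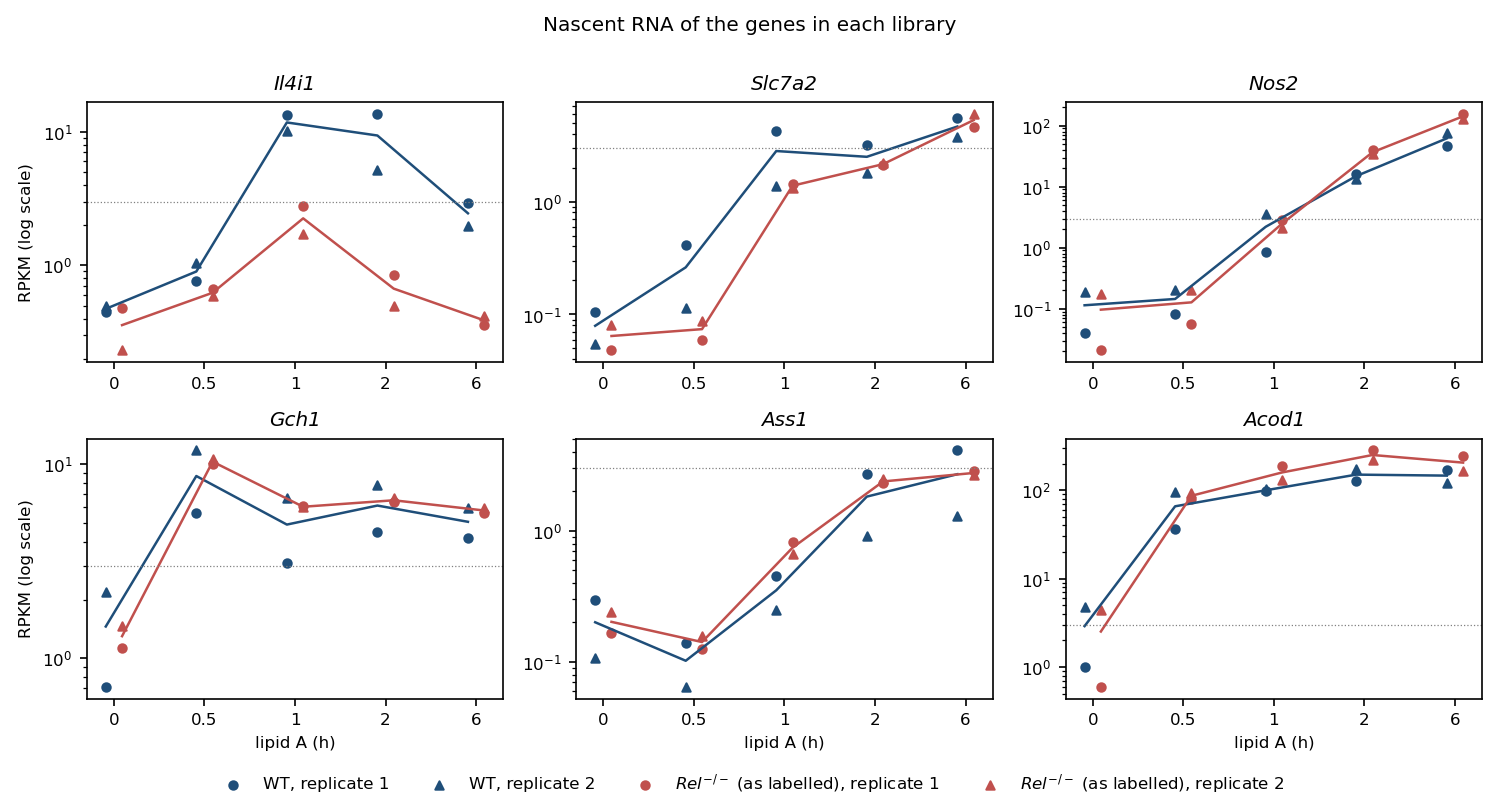
RPKM of *Il4i1*, *Slc7a2*, *Nos2*, *Gch1*, *Ass1* and *Acod1* on a log axis against hours of lipid A, with a point per library, lines through the means of 2 replicates, and a dotted line at the expression threshold of 3 RPKM. *Il4i1* reached 10.1 and 13.3 RPKM in WT at 1 h against 1.71 and 2.78 RPKM in libraries labelled *Rel*-/-.

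Lipid A raised most of the members that could be tested. Tests used limma over the 2980 genes with a WT mean over 3 RPKM at any time point, with Benjamini-Hochberg adjustment and a threshold of 0.05. *Il4i1*, *Slc7a2*, *Nos2*, *Gch1* and *Acod1* were among them. *Il4i1* passed through WT only, since its highest mean in libraries labelled *Rel*-/- was 2.25 RPKM, and *Ass1* stayed below the threshold. In WT, 2 of the 5 rose at 0.5 h (*Gch1* and *Acod1*), when 14.1% of all tested genes were called higher, and 5 of 5 rose at 1 h (16.3% of all), 2 h (22%) and 6 h (15.2%). In libraries labelled *Rel*-/-, the same 2 members rose at 0.5 h (13.9% of all), 5 of 5 at 1 h (16.6%), and 4 of 5 at 2 h (22.7%) and 6 h (19.5%), *Il4i1* being the exception. The median log2 change of the 5 over 0 h was 0.89, 3.83, 3.89 and 4.71 in WT at 0.5, 1, 2 and 6 h, against −0.33, −0.18, −0.21 and −0.15 for all tested genes. For libraries labelled *Rel*-/- the median was 0.72, 3.18, 3.78 and 5.02, against −0.28, −0.10, −0.28 and −0.18. All comparisons within a genotype share the 0-h libraries. Without a whole time course of the libraries labelled *Rel*-/-, a lone library was left in each of their groups. Fewer genes were then called over 0 h, both among the members and over all tested genes, so this loss was not particular to the members.

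Between genotypes, 1 of the 5 tested members was called, *Il4i1*, lower in libraries labelled *Rel*-/- at 1 and 2 h. The paper already lists *Il4i1* among genes strongly dependent on Rel in these data, and it entered the tested set through WT only. Its call is therefore not independent support. At 1 h 0.973% of all tested genes were called (13 higher, 16 lower) and at 2 h 0.839% (3 higher, 22 lower). No member was called at 0 h (0% of all genes), 0.5 h (0.134%) or 6 h (0.0336%) in limma. At an unadjusted p under 0.05 there were 0, 0 and 1 of the 5, the last again *Il4i1*. Over all 2980 tested genes, 53, 209 and 192 were under this unadjusted limit at 0, 0.5 and 6 h. The median log2 difference of the 5 was −0.15, −0.14, 0.40, 0.14 and 0.21 at 0, 0.5, 1, 2 and 6 h, against 0.06, 0.10, 0.15, 0.05 and 0.05 over all tested genes. For a different induction between the genotypes, limma called 0 genes at each time, 0% of those tested, with 79, 103, 85 and 44 genes at an unadjusted p under 0.05 at 0.5, 1, 2 and 6 h. Among the members only *Il4i1* reached an unadjusted p under 0.05 there, at 1, 2 and 6 h.

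*Il4i1* (NM_010215, chromosome 7, 52091658 to 52096179 on the plus strand) encodes an L-amino-acid oxidase that is released from the cell and acts on phenylalanine, tyrosine and tryptophan. In WT replicates 1 and 2 it had 0.450 and 0.495 RPKM at 0 h, 0.763 and 1.04 at 0.5 h, 13.3 and 10.1 at 1 h, 13.5 and 5.16 at 2 h, and 2.94 and 1.97 at 6 h. The same values for libraries labelled *Rel*-/- were 0.483 and 0.232 RPKM at 0 h, 0.662 and 0.586 at 0.5 h, 2.78 and 1.71 at 1 h, 0.845 and 0.495 at 2 h, and 0.360 and 0.415 at 6 h. Each WT library was above each library labelled *Rel*-/- of its time point at 0.5, 1, 2 and 6 h, whereas at 0 h the genotypes overlapped. Between the replicates, WT at 2 h was the least even, with 1389 and 873 reads, and the lowest value of all rested on 43 reads.

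The WT wave of *Il4i1* was transient. Over 0 h the mean was 1.90-fold at 0.5 h, 24.8-fold at 1 h, 19.8-fold at 2 h and 5.19-fold at 6 h. Corresponding folds in libraries labelled *Rel*-/- were 1.75, 6.29, 1.87 and 1.08, so that at 6 h the mean (0.387 ± 0.0392 RPKM, SD, n = 2) was near that at 0 h (0.357 ± 0.178). In limma the WT log2 change over 0 h was 4.36 at 1 h (Benjamini-Hochberg adjusted p = 1.82e-05), 3.89 at 2 h (3.09e-05) and 2.13 at 6 h (0.00423), higher in both time courses, and 0.79 at 0.5 h (0.200). For libraries labelled *Rel*-/- it was 2.38 at 1 h (adjusted p = 0.00145 in limma, higher in both time courses), and 0.72 (0.251), 0.77 (0.168) and 0.15 (0.819) at 0.5, 2 and 6 h. The WT value at 2 h was 3.201 without its replicate 1 and 4.58 without its replicate 2, and 3.14 without the whole WT time course of replicate 1. At 6 h the WT call was lost when only the WT libraries at 0 and 6 h entered the fit (adjusted p = 0.0547). The call in libraries labelled *Rel*-/- at 1 h was lost without the whole time course of their replicate 1 (0.1002) or 2 (0.136).

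The gap between genotypes was widest at 2 h. The WT mean of *Il4i1* was 1.32 times that in libraries labelled *Rel*-/- at 0 h, 1.44 times at 0.5 h, 5.22 times at 1 h, 14.0 times at 2 h and 6.33 times at 6 h. By same-numbered pair, the log2 ratio of libraries labelled *Rel*-/- to WT was 0.10 and −1.10 at 0 h, −0.21 and −0.82 at 0.5 h, −2.26 and −2.56 at 1 h, −4.00 and −3.38 at 2 h, and −3.03 and −2.24 at 6 h. In limma the log2 difference was −2.36 at 1 h (standard error 0.450, 95% confidence interval −3.33 to −1.39, adjusted p = 0.0210) and −3.50 at 2 h (standard error 0.450, −4.47 to −2.53, adjusted p = 0.00282), lower in both pairs each time. It was −2.36 at 6 h (adjusted p = 0.149, lower in both pairs), and −0.38 (0.998) and −0.45 (0.999) at 0 and 0.5 h. At 6 h *Il4i1* passed with the replicate number as a block (adjusted p = 0.0258, with 0.134% of genes called) and without an expression threshold (0.0353, with 0.462% of 24888 genes called). The difference at 6 h was −2.64 without the whole WT time course of replicate 2. With pseudocounts of 0.01 and 1 RPKM the log2 difference of *Il4i1* was −2.41 and −1.98 at 1 h and −3.67 and −2.51 at 2 h, each called, and −2.61 and −1.30 at 6 h, not called.

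Single libraries decided the call of *Il4i1* between genotypes at 1 h, though not its direction. Without WT replicate 1 of that time the log2 difference was −2.16 (adjusted p = 0.135 in limma) and without WT replicate 2 it was −2.55 (0.0536). Without replicate 1 of the libraries labelled *Rel*-/- it was −2.69 (0.0936), and without their replicate 2 it was −2.02 (0.308). A block for each time course gave adjusted p = 0.0507. At 2 h the difference was −2.81 without WT replicate 1 (0.0180), −4.19 without WT replicate 2 (0.00277) and −3.17 without replicate 2 of the libraries labelled *Rel*-/-, where the call was lost (0.0665). With the whole WT time course of replicate 1 left out, the differences at 1, 2 and 6 h were −2.16 (0.0238), −2.81 (0.0183) and −2.09 (0.109). With a whole time course of the libraries labelled *Rel*-/- left out, no call remained at 1 h (0.674 without replicate 1, 0.981 without replicate 2) or 2 h (0.258 and 0.672). Nor was there a call in fits restricted to the 4 libraries being compared (0.743 at 1 h, 0.315 at 2 h). Over 19 alternatives the adjusted p ran from 0.00704 to 0.981 at 1 h, from 0.000891 to 0.672 at 2 h and from 0.0179 to 1.00 at 6 h, with 11, 15 and 3 of them under 0.05.

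The difference in the induction of *Il4i1* between genotypes did not pass. It was −0.07 on the log2 scale at 0.5 h (adjusted p = 1.00 in limma), −1.98 at 1 h (0.893), −3.12 at 2 h (standard error 0.636, 95% confidence interval −4.49 to −1.75, adjusted p = 0.0928) and −1.98 at 6 h (1.00). The induction at 1, 2 and 6 h was smaller in libraries labelled *Rel*-/- in both same-numbered pairs. At 2 h the adjusted p was 0.0501 with the replicate block and 0.0136 with a block for each time course, a fit that called 0.47% of genes. It was −2.38 without the whole WT time course of replicate 1 (0.130) and −3.86 without that of replicate 2 (0.0601). Over the 23 alternatives of *Il4i1* the adjusted p at 2 h lay between 0.0136 and 1.00.

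*Il4i1* shares its locus with other annotated genes, and the strand use of the counting was not given. *Il4i1b* (NM_001171024, 52071740 to 52096173) covers 4516 of its 4522 bases, and *Tbc1d17* (NM_001042655, 52096146 to 52104449), annotated on the minus strand, overlaps it by 34 bases. *Nup62*, a nuclear pore gene (NM_053074, 52071458 to 52087206), ends 4451 bases upstream of it. Reads over *Il4i1* made up 3.60 and 8.17% of the reads over *Il4i1b* at 0 h in WT, 6.43 and 16.8% at 0.5 h, 45.8 and 53.9% at 1 h, 61.9 and 51.4% at 2 h, and 44.9 and 39.3% at 6 h. Shares in libraries labelled *Rel*-/- were 3.40 and 2.20%, 6.99 and 11.7%, 21.2 and 21.2%, 10.7 and 14.3%, and 8.09 and 12.3%. The span of *Il4i1b* also covers most of *Nup62*, and with the reads over *Il4i1* and *Nup62* subtracted only 16 to 152 of its reads were left in a library, so the share in effect sets *Il4i1* against *Nup62*, a separate gene. It was higher in WT than in libraries labelled *Rel*-/- at 1, 2 and 6 h, with no overlap between genotypes. At 0 h the WT shares were also the higher ones, though low, and at 0.5 h the genotypes overlapped.

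The 3 genes around *Il4i1* did not pass between genotypes. *Nup62* had WT means of 2.38, 2.22, 3.36, 1.77 and 0.894 RPKM from 0 to 6 h and in libraries labelled *Rel*-/- means of 3.21, 1.78, 2.26, 1.34 and 0.944. The log2 difference of this gene was −0.53 at 1 h (adjusted p = 0.903 in limma) and −0.45 at 2 h (0.996). For *Il4i1b* the WT means were 1.72, 1.67, 4.43, 2.95 and 1.07 RPKM, those of the libraries labelled *Rel*-/- 2.29, 1.34, 1.96, 1.05 and 0.724, 2.26 times higher in WT at 1 h and 2.80 times at 2 h. In limma it differed by −1.14 at 1 h (adjusted p = 0.538) and −1.40 at 2 h (0.531), lower in both pairs. *Tbc1d17* differed by −0.25 at 1 h (adjusted p = 0.972 in limma) and −0.77 at 2 h (0.994).

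**Figure D2:**
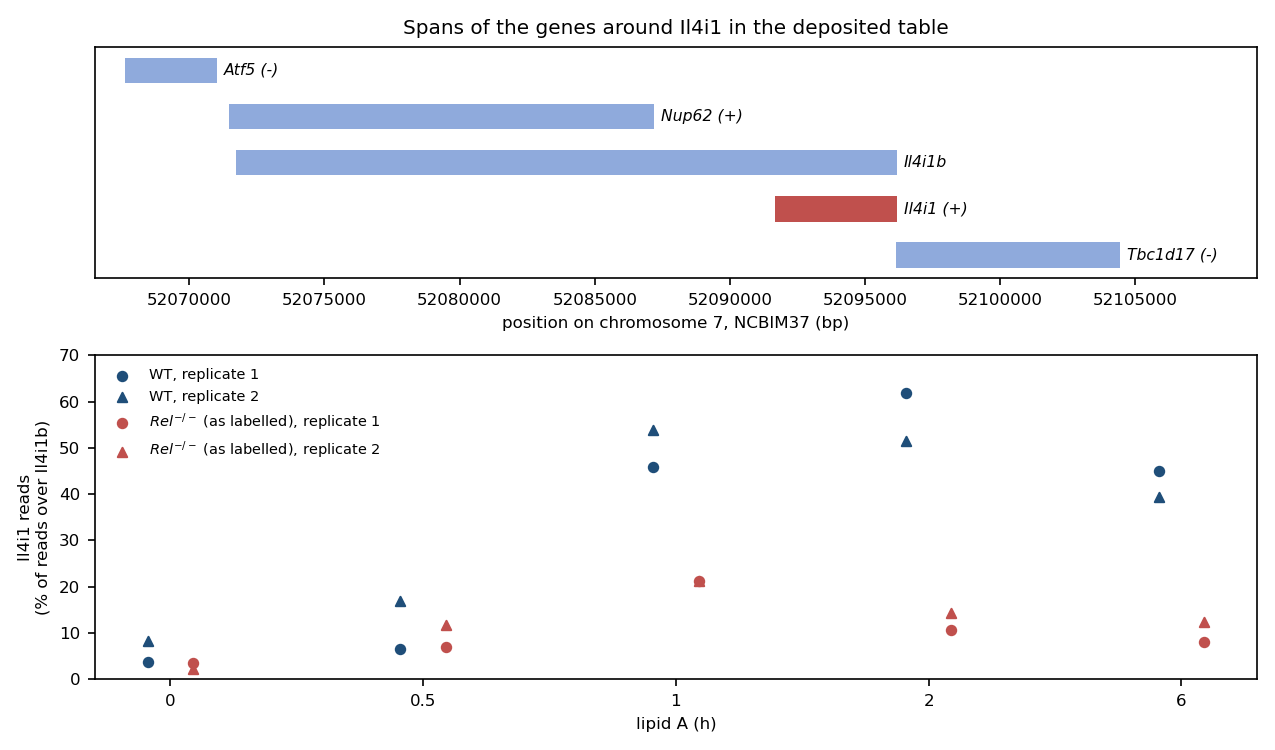
Spans of *Atf5*, *Nup62*, *Il4i1b*, *Il4i1* and *Tbc1d17* on chromosome 7, and reads over *Il4i1* as a percentage of reads over *Il4i1b* in each library against hours of lipid A. In WT the share reached 61.9 and 51.4% at 2 h against 10.7 and 14.3% in libraries labelled *Rel*-/-.

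Across the 20 libraries, the tested gene whose pattern was most like that of *Il4i1* was *Mir455*, with a Pearson correlation of log2(RPKM + 0.1) of 0.933 among 2979 genes. It is a short gene of 82 bases (chromosome 4, 62917885 to 62917966) with 9 and 11 WT reads at 1 h, 8 and 7 at 2 h, and 1 to 3 reads, at or under the floor, in each library labelled *Rel*-/-. A value of 1 read may stand for no measured read, so the likeness of *Mir455* rests on few reads. Next came *Il12b* (0.847), the gene of the p40 subunit of interleukin 12, then *Mtdh* (0.838), *Myo1g* (0.797) and *Mir7059* (0.794). *Il12b* had 27.5 and 16.9 RPKM at 1 h, then 10.8 and 1.09 at 2 h, in WT against 1.33 and 0.721, and 0.0444 and 0.0273, in libraries labelled *Rel*-/-. It was lower in both pairs at each of these times, also ran apart at 0.5 h (2.18 and 6.65 RPKM in WT against 0.0517 and 0.0476) and overlapped at 6 h, with a fall from 1 to 2 h in WT that was steeper than that of *Il4i1*. *Myo1g*, an unconventional myosin, had 29.9 and 25.3 RPKM at 1 h and 34.4 and 25.9 at 2 h in WT against 14.1 and 13.2, and 16.8 and 12.4, in libraries labelled *Rel*-/-, with no overlap. These correlations describe libraries that share time courses, and they carry no test.

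*Slc7a2* (NM_007514, chromosome 8, 41947721 to 42007424, plus strand) encodes the cationic amino acid transporter CAT2, which carries arginine into the cell. WT replicates 1 and 2 had 0.104 and 0.0546 RPKM at 0 h, 0.409 and 0.114 at 0.5 h, 4.22 and 1.38 at 1 h, 3.19 and 1.79 at 2 h, and 5.47 and 3.76 at 6 h. The libraries labelled *Rel*-/- had 0.0482 and 0.0807, 0.0599 and 0.0883, 1.43 and 1.33, 2.09 and 2.20, and 4.57 and 5.96 RPKM. WT replicate 1 was above WT replicate 2 at each time, and the genotypes overlapped except at 0.5 h, where the WT mean was 3.53 times higher at low level (log2 ratios by pair −2.77 and −0.36). *Slc7a2* rose in both genotypes from 1 h on and was highest at 6 h, 58.2-fold above 0 h in WT and 81.6-fold in libraries labelled *Rel*-/-. In limma the WT log2 change was 3.83, 3.81 and 4.71 at 1, 2 and 6 h (adjusted p = 0.000117, 0.000104 and 5.95e-05) and that in libraries labelled *Rel*-/- 3.18, 3.78 and 5.02 (0.000554, 0.000103 and 2.11e-05), higher in both time courses. The WT value at 1 h was 3.06 without its replicate 1 and 4.60 without its replicate 2. Without a whole time course of the libraries labelled *Rel*-/- their calls at 1 h were lost (0.126 without replicate 1, 0.124 without replicate 2), as were those at 2 h (0.0641 and 0.0598) and, without replicate 1, that at 6 h (0.0521). The WT call at 1 h was lost with only the libraries compared (0.0804). The WT log2 changes at 1, 2 and 6 h were 4.82, 4.80 and 5.73 with a pseudocount of 0.01 RPKM and 1.71, 1.66 and 2.36 with 1 RPKM, each called. At 0.5 h neither genotype passed, at 0.89 (0.209) and 0.08 (0.917), though WT did with a block for each time course. The WT value at 0.5 h was 1.32 without the whole WT time course of replicate 2.

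Between genotypes *Slc7a2* differed by −0.93 at 0.5 h (adjusted p = 0.839 in limma) and −0.77 at 1 h (0.811), lower in both pairs of libraries labelled *Rel*-/-. Without the whole WT time course of replicate 2, which leaves a lone WT library in each group, it was −1.55 at 0.5 h and −1.54 at 1 h. Without that of WT replicate 1 it was −0.30 and −0.00296, so the size of the difference rests on WT replicate 1. In the alternatives that kept 2 libraries in each group, *Slc7a2* was not called between genotypes at 0.5 or 1 h. At 2 and 6 h the difference of *Slc7a2* was −0.15 and 0.20, neither called, and its direction changed without a WT library.

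*Nos2* (NM_001313922, chromosome 11, 78738793 to 78773728, plus strand), inducible nitric oxide synthase, had the widest range of the tested members as a fold. In RPKM the range of *Acod1* was wider. WT had 0.0404 and 0.187 RPKM at 0 h, 0.0829 and 0.206 at 0.5 h, 0.862 and 3.54 at 1 h, 16.3 and 13.6 at 2 h, and 46.6 and 77.2 at 6 h. The libraries labelled *Rel*-/- had 0.0208 and 0.172, 0.0552 and 0.199, 2.88 and 2.06, 39.6 and 33.8, and 155 (155.3) and 130 (129.8) RPKM. Both libraries labelled *Rel*-/- were above both WT libraries at 2 h and at 6 h, while at 0, 0.5 and 1 h the genotypes overlapped. At 6 h the mean was 543 times the 0-h mean in WT (1153 in replicate 1, 412 in replicate 2) and 1477 times in libraries labelled *Rel*-/- (7454 and 754), with 20 and 247 reads at 0 h behind the latter. At the peak of *Nos2*, 33 of the tested genes had a higher mean in WT and 21 in libraries labelled *Rel*-/-.

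The rise of *Nos2* passed in both genotypes from 1 h on. The WT log2 change over 0 h in limma was 3.22 at 1 h (adjusted p = 0.00108), 6.22 at 2 h (1.11e-05) and 8.22 at 6 h (2.11e-06), higher in both time courses. The change in libraries labelled *Rel*-/- was 3.81 (adjusted p = 0.000429 in limma), 7.66 (2.75e-06) and 9.61 (3.79e-07), also in both. At 0.5 h it was 0.24 (0.801) in WT and 0.25 (0.787) in libraries labelled *Rel*-/-, with the opposite sign in some alternatives. Without WT replicate 1 at 1 h the WT value there was 4.18, and without replicate 2 it was 2.26. Without replicate 1 of the libraries labelled *Rel*-/- at 0 h their values were 3.22, 7.08 and 9.03, and without replicate 2 they were 4.39, 8.25 and 10.20. Without a whole time course of the libraries labelled *Rel*-/- their call at 1 h was lost (0.121 without replicate 1, 0.0519 without replicate 2), and those at 2 and 6 h were kept. The WT call at 1 h was lost with only the libraries compared (0.126). With pseudocounts of 0.01 and 1 RPKM the log2 change at 1 h was 4.14 and 1.39 in WT and 5.03 and 1.66 in libraries labelled *Rel*-/-, each called. The WT change at 2 h was 5.57 without the whole time course of replicate 1 and 6.87 without that of replicate 2.

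The higher *Nos2* level in libraries labelled *Rel*-/- did not pass. The ratio of their mean to that of WT was 2.46 at 2 h (36.7 ± 4.16 against 14.9 ± 1.91 RPKM) and 2.30 at 6 h (142.5 ± 18.0 against 61.9 ± 21.7). The log2 ratios by pair were 1.28 and 1.31 at 2 h, and 1.74 and 0.75 at 6 h. In limma the difference was 1.29 at 2 h (standard error 0.598, 95% confidence interval 0.00 to 2.59, adjusted p = 0.787) and 1.24 at 6 h (−0.05 to 2.53, adjusted p = 0.790), higher in both pairs. The induction of *Nos2* differed by 1.44 at 2 h (adjusted p = 0.998) and 1.39 at 6 h (1.00). With libraries or time courses left out it lay between 0.74 and 2.14 at 2 h and between 0.67 and 2.104 at 6 h, and it was called in none of them.

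*Gch1* (NM_008102, chromosome 14, 47773570 to 47809088, minus strand), GTP cyclohydrolase, opens the synthesis of tetrahydrobiopterin and was the earliest of the tested members to peak. WT had 0.714 and 2.21 RPKM at 0 h, 5.62 and 11.8 at 0.5 h, 3.10 and 6.67 at 1 h, 4.48 and 7.78 at 2 h, and 4.18 and 5.93 at 6 h. The libraries labelled *Rel*-/- had 1.13 and 1.47, 10.01 and 10.6, 6.09 and 5.99, 6.37 and 6.68, and 5.58 and 5.97 RPKM. WT replicate 1 was below WT replicate 2 at each time, the libraries labelled *Rel*-/- lay between them at each time except 6 h, and the genotypes overlapped throughout. Over 0 h the WT mean was 5.96, 3.35, 4.20 and 3.46 times higher at 0.5, 1, 2 and 6 h, and that in libraries labelled *Rel*-/- 7.92, 4.64, 5.01 and 4.44 times.

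*Gch1* rose at each of the 4 times in both genotypes. In WT the log2 change in limma was 2.59, 1.77, 2.13 and 1.89 (adjusted p = 0.00169, 0.0143, 0.00423 and 0.0132), higher in both time courses. That in libraries labelled *Rel*-/- was 2.90, 2.14, 2.25 and 2.08 (adjusted p = 0.000864, 0.00526, 0.00273 and 0.00608 in limma), also in both. Without WT replicate 1 at 0 h the WT values were 1.84, 1.015 (0.157), 1.38 (0.0561) and 1.14 (0.146), so that the calls at 1, 2 and 6 h were lost, and without replicate 2 at 0 h they were 3.34, 2.52, 2.88 and 2.64. These calls were also lost without WT replicate 2 of the time in question, at 1.23 (0.131), 1.74 (0.0524) and 1.64 (0.104). With only the libraries compared, none of the 4 WT calls was kept (adjusted p from 0.0638 to 0.198). In libraries labelled *Rel*-/- the call at 6 h was lost without replicate 1 at 0 h (1.90, 0.0522), and none of the 4 was kept without a whole time course of theirs (adjusted p from 0.148 to 0.287).

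Between genotypes *Gch1* differed by 0.02, 0.34, 0.40, 0.14 and 0.21 on the log2 scale from 0 to 6 h, none of them called in limma. At 1 h the difference was 0.94 without the whole WT time course of replicate 2 and −0.14 without WT replicate 1. At each time the difference had the opposite sign without WT replicate 1 of that time.

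*Ass1* (NM_007494, chromosome 2, 31325790 to 31376190, plus strand) encodes argininosuccinate synthase, which starts the return of citrulline to arginine. WT had 0.295 and 0.106 RPKM at 0 h, 0.140 and 0.0646 at 0.5 h, 0.456 and 0.249 at 1 h, 2.74 and 0.913 at 2 h, and 4.10 and 1.31 at 6 h. The libraries labelled *Rel*-/- had 0.165 and 0.239, 0.126 and 0.158, 0.827 and 0.661, 2.30 and 2.47, and 2.84 and 2.69 RPKM. WT replicate 1 was above WT replicate 2 throughout, with the libraries labelled *Rel*-/- between them at 2 and 6 h, and at 1 h both of the latter were above both WT libraries (2.11 times the mean). The mean at 6 h was 13.5 times that at 0 h in WT and 13.7 times in libraries labelled *Rel*-/-. Its WT mean stayed under 3 RPKM, so *Ass1* was tested with a threshold of 1 RPKM, over 7312 genes, and with none, over 24888. In the former limma fit it rose in WT at 2 h (log2 change 2.57, adjusted p = 0.00209, with 12% of genes called higher) and 6 h (3.09, 0.00121, 8.6%), in both time courses. Among libraries labelled *Rel*-/- it rose at 1 h (1.49, adjusted p = 0.0386, 9% of genes called higher in limma), 2 h (3.05, 0.000616, 12.7%) and 6 h (3.26, 0.000569, 11.3%), in both time courses. WT had 0.62 at 1 h (0.358), and the induction there differed by 0.86 (1.00). Without a threshold the call in libraries labelled *Rel*-/- at 1 h was lost (adjusted p = 0.0614 in limma), and those of both genotypes at 2 and 6 h were kept, in libraries labelled *Rel*-/- at 6 h with an adjusted p of 0.00107 and 5.35% of genes called higher. The genotypes did not pass as different in either fit, with 0.93 at 1 h (adjusted p = 0.549 and 0.570).

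*Acod1* (NM_008392, chromosome 14, 103446229 to 103455790, plus strand), which makes itaconate from cis-aconitate, was the most abundant member in each group. WT had 0.991 and 4.81 RPKM at 0 h, 36.4 and 94.9 at 0.5 h, 96.8 and 103 (102.6) at 1 h, 128 and 171 at 2 h, and 171 and 121 at 6 h. The libraries labelled *Rel*-/- had 0.598 and 4.44, 80.1 and 92.6, 186 and 131, 281 and 219, and 245 and 165 RPKM. At 1 and 2 h both libraries labelled *Rel*-/- were above both WT libraries, and at the other times the genotypes overlapped. The WT mean was 22.7, 34.4, 51.7 and 50.4 times that at 0 h, and that in libraries labelled *Rel*-/- 34.3, 62.9, 99.2 and 81.3 times. At their peak means, 149.9 RPKM in WT and 249.9 in libraries labelled *Rel*-/-, 20 and 11 of the tested genes were higher.

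*Acod1* rose at each time in both genotypes. The WT log2 change in limma was 4.67, 5.43, 6.00 and 5.96 from 0.5 to 6 h (adjusted p = 0.000765, 0.000213, 8.68e-05 and 0.000207), and in libraries labelled *Rel*-/- 5.60, 6.46, 7.12 and 6.82 (0.000251, 8.61e-05, 2.38e-05 and 5.72e-05), higher in both time courses of each. The size depended on the 0-h libraries. Without WT replicate 1 at 0 h the WT values were 3.59, 4.34, 4.92 and 4.87, and without replicate 2 they were 5.76, 6.51, 7.09 and 7.04. Values in libraries labelled *Rel*-/- were 4.25, 5.10, 5.77 and 5.47 without replicate 1 at 0 h and 6.95, 7.81, 8.47 and 8.17 without replicate 2. The WT value at 0.5 h was also 5.36 without its replicate 1 and 3.98 without its replicate 2. Without the whole WT time course of replicate 1 the values at 1, 2 and 6 h were 4.39, 5.13 and 4.62, and without that of replicate 2 they were 6.47, 6.88 and 7.30. The WT call at 0.5 h was lost with only the libraries compared (adjusted p = 0.0702). The calls in libraries labelled *Rel*-/- at 0.5, 1 and 6 h were lost without the whole time course of their replicate 1 (adjusted p = 0.0864, 0.0704 and 0.0647).

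The mean of *Acod1* in libraries labelled *Rel*-/- was 1.59 times that in WT at 1 h and 1.67 times at 2 h, with log2 ratios by pair of 0.94 and 0.35, and 1.13 and 0.35. In limma the difference was 0.65 at 1 h (adjusted p = 0.927) and 0.74 at 2 h (0.996), higher in both pairs, and it was −0.38, 0.55 and 0.48 at 0, 0.5 and 6 h. The sign at 0 and 0.5 h changed without some of the libraries.

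**Figure D3:**
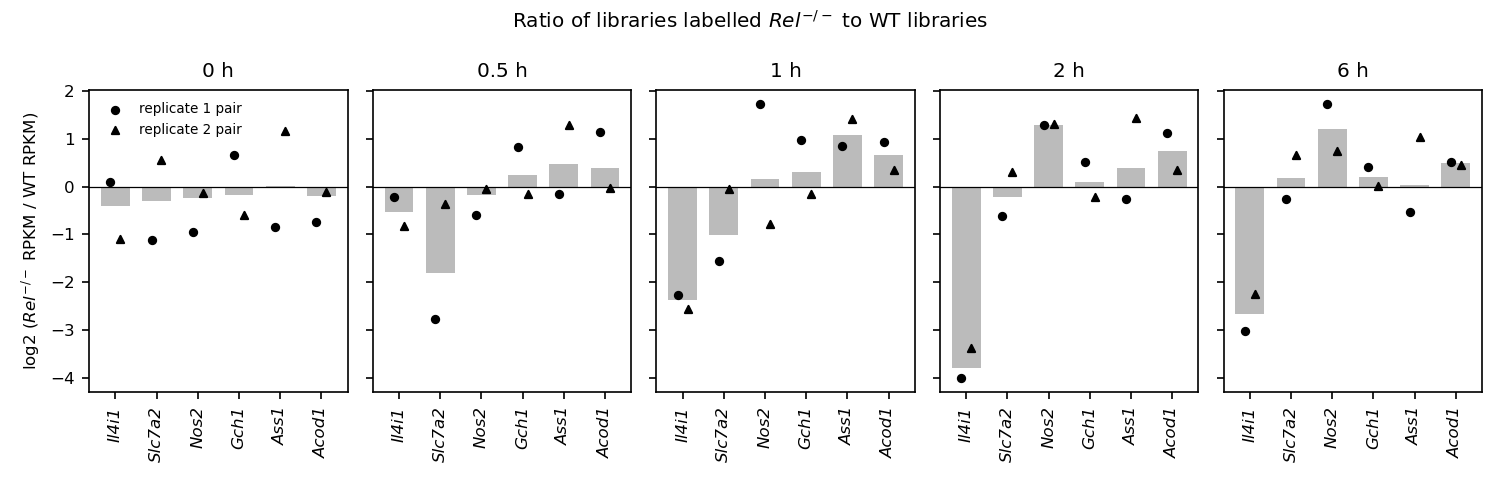
Log2 ratio of mean RPKM in libraries labelled *Rel*-/- to WT for the same genes at each time point as bars, with a point for each same-numbered pair of replicates. *Il4i1* lies at −4.00 and −3.38 at 2 h, and *Nos2* at 1.28 and 1.31.

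Among the members, the patterns over the 20 libraries were closest for *Nos2* and *Ass1* (Pearson correlation of log2(RPKM + 0.1) 0.924), *Nos2* and *Slc7a2* (0.895), *Ass1* and *Slc7a2* (0.868) and *Acod1* and *Gch1* (0.854). *Il4i1* had its highest value with *Slc7a2* (0.50). The tested genes most like *Nos2* were *Heatr9* (0.986), *Cfb* (0.969) and *Fpr2* (0.968). *Heatr9* had 6.501 and 4.87 RPKM in WT at 6 h and 11.7 and 6.21 in libraries labelled *Rel*-/-. *Acod1* was closest to *Cxcl10* (0.975), *Mir155hg* (0.961) and *Nod2* (0.954), and *Cxcl10*, an interferon-inducible chemokine, had 159.7 and 197 RPKM in WT at 2 h and 202 and 137 in libraries labelled *Rel*-/-. *Gch1* was closest to *Slfn2* (0.978), *Cflar* (0.965) and *Birc3* (0.958), and those close to *Slc7a2* included *AA467197* (0.934) and *Ext1* (0.923). The points share time courses and depth, and none of the genes named here as closest to *Nos2*, *Acod1*, *Gch1* or *Slc7a2* was called between genotypes at 1 or 2 h in limma.

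Only 11 genes of the 7 pathway lists passed the threshold and were tested. Of these *Il4i1* alone was called between genotypes in limma, at 1 h (0.973% of all tested genes called) and 2 h (0.839%), and the other listed genes were not tested in this fit. Of 6 arginine import and export genes, 2 were past the threshold, *Slc7a2* and *Slc3a2*. *Slc3a2*, the heavy chain of heteromeric transporters, had WT means of 4.01, 4.95, 7.03, 4.62 and 2.89 RPKM and was not called. *Slc7a7*, a partner chain that exports arginine, stayed below the threshold with 1.17, 1.47, 2.06, 1.39 and 1.45 RPKM in WT against 1.05, 0.681, 0.646, 0.454 and 0.798 in libraries labelled *Rel*-/-. Of 10 nitric oxide and citrulline genes, only *Nos2* passed the threshold, and *Asl*, which completes arginine synthesis after *Ass1*, had 1.74 RPKM in WT at 0 h and 0.453 at 2 h.

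In the list of 16 polyamine and proline genes, *Sat1* and *Azin1* were past the threshold and neither was called at any time. *Sat1*, a spermidine acetyltransferase, had WT means of 28.8, 32.6, 24.1, 21.7 and 16.4 RPKM. *Azin1*, the antizyme inhibitor, had WT means of 3.15, 5.80, 5.94, 1.37 and 2.60 RPKM against 4.56, 9.34, 7.61, 2.31 and 6.44 in libraries labelled *Rel*-/-, and *Smox* reached 2.49 RPKM in WT at 1 h. Of the 8 tetrahydrobiopterin genes only *Gch1* passed the threshold. *Pts*, the next enzyme after *Gch1*, had WT means of 2.70, 0.845, 0.717, 1.016 and 0.998 RPKM, and *Pcbd2* went from 0.987 at 0 h to 0.0831 at 1 h.

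Of 26 itaconate and citric acid cycle genes, 3 passed the threshold, *Acod1*, *Idh3b* and *Dlst*. *Idh3b*, a subunit of isocitrate dehydrogenase, had a mean of 5.63 RPKM at 0 h and 2.97 at 1 h in WT and 6.01 and 2.39 in libraries labelled *Rel*-/-. In limma it fell in libraries labelled *Rel*-/- at 1 h (−1.39, adjusted p = 0.0418) and 2 h (−1.27, 0.0444), lower in both time courses, whereas WT had −0.93 (0.153) and −0.66 (0.283), and the differences between these changes were −0.46 (0.999) and −0.61 (0.998). *Dlst*, a subunit of 2-oxoglutarate dehydrogenase, fell in libraries labelled *Rel*-/- at 2 h (−0.998, adjusted p = 0.0405 in limma) and 6 h (−1.03, 0.0412) in both time courses, with −0.56 (0.233) and −0.80 (0.115) in WT and differences of −0.44 (0.998) and −0.23 (1.00).

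The list of amino acid oxidases and tryptophan catabolism held 19 symbols, of which 17 were in the table and 1, *Il4i1*, passed the threshold. The WT mean of *Got1* was 1.4803 RPKM at 0 h and 0.351 at 0.5 h, that of *Afmid* 1.30 at 0 h. *Ccbl1* and *Ccbl2* are older symbols that the table does not use. Of 7 genes of the aryl hydrocarbon receptor and its targets, *Tiparp* was past the threshold. WT replicates had 1.29 and 2.48 RPKM at 0 h, then 4.22 and 46.7, then 8.09 and 32.4 at 2 h, against 2.38 and 3.12, 11.8 and 12.6, and 20.9 and 25.1 in libraries labelled *Rel*-/-. WT replicate 1 was far below WT replicate 2, with the libraries labelled *Rel*-/- between them at 1 and 2 h. In limma *Tiparp* rose in WT at 1 h (2.91, adjusted p = 0.0256) and 2 h (3.11, 0.0161) and in libraries labelled *Rel*-/- at 2 h (3.02, 0.0165), in both time courses, with 2.12 at 1 h (0.0943) and a difference in induction of −0.79 at 1 h (0.999). *Arnt* reached 1.99 RPKM in WT and *Ahr*, the receptor, 0.599.

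Nearest neighbours of the other members were mostly low. Beside *Nos2*, *Lgals9*, which encodes galectin-9, lies 2752 bases away with 10.9 and 13.9 RPKM in WT at 2 h and 14.6 and 14.4 in libraries labelled *Rel*-/-, a log2 difference of 0.23 (adjusted p = 0.996 in limma), and *Lyrm9* lies 81391 bases away with at most 0.477 RPKM. Beside *Acod1*, *4933432I03Rik* (13208 bases away) reached a WT mean of 0.898 RPKM. The neighbours of *Ass1* are *Fubp3* (1.47 RPKM) and *Ncs1* (0.101), those of *Gch1* *Wdhd1* (1.16) and *Gm10371* (0.0271), and those of *Slc7a2* *Pdgfrl* (0.0736) and *Adam39* (0.0107). *Mir707* lies 8889 bases beyond *Il4i1*.

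Promoters of 4 members, *Il4i1*, *Acod1*, *Gch1* and *Ass1*, were found in the RefSeq table (GRCm38.p6), from 250 bases before to 50 after the start of the gene. *Il4i1* is shown as the member that differed between genotypes, and *Acod1* and *Gch1* as the members that rose at 0.5 h in both. Motifs were searched on both strands, and capitals mark GGGAA (or TTCCC) and GGAAA in *Il4i1*, the 9-base GGAAANTCC in *Acod1*, and the NF-κB consensus GGGRNNYYCC in *Gch1*. In these letters R is A or G, Y is C or T, and N is any base. Sequences read 5′ to 3′ along the gene, *Il4i1* from chr7:44836038-44836337 on the plus strand, *Acod1* from chr14:103046762-103047061 on the plus strand and *Gch1* from chr14:47189364-47189663 on the minus strand.
Il4i1: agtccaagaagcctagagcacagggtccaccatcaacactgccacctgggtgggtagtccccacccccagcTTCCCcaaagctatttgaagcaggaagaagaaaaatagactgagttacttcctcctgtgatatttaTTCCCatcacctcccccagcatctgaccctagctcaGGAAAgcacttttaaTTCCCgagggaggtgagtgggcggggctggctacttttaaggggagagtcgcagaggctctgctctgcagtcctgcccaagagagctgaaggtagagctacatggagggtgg
Acod1: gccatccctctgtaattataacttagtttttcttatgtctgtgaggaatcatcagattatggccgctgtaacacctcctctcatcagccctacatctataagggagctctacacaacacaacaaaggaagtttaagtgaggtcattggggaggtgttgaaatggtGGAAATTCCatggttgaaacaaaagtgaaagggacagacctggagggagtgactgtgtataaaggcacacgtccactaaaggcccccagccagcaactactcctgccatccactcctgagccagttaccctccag
Gch1: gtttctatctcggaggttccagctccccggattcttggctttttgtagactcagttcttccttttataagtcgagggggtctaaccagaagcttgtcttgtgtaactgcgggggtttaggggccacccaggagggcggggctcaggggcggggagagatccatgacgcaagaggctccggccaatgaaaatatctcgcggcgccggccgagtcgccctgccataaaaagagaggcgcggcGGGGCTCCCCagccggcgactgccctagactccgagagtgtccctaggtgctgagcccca
In *Il4i1*, TTCCC starts at −179, −113 and −62 and GGAAA at −77, counted from the first base of the gene as 0, and neither the consensus, GGAAANTCC nor TATAAA is in the window. The paper places a Rel ChIP-seq peak with potential NF-κB motifs farther upstream of *Il4i1*, outside this window. In *Acod1*, GGAAATTCC starts at −85 and TATAAA at −28, the latter not in capitals, as is GTTTT at −225. In *Gch1* the consensus match GGGGCTCCCC starts at −10 and matches on both strands, and TATAAA lies on the other strand at −188. *Ass1* (chr2:31470020-31470319, plus strand) has GGGAA at −159. Of 32851 promoters of this length, 62.7% hold GGGAA, 61.3% GGAAA, 44.7% GTTTT, 13.6% TATAAA, 8.46% the NF-κB consensus and 1.25% GGAAANTCC. The STAT letters TTCNNNGAA (in 8.30% of promoters) and a pair of GAAA repeats 2 bases apart, the IRF element (3.44%), were in none of the 4 windows. GGAAANTCC begins with GGAAA, so their matches overlap. A match describes letters and is not a measured site.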

How the data were processed

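Chromatin-associated RNA was sequenced from the 20 libraries described above. According to the methods the authors aligned reads with HISAT to NCBIM37 (mm9), used SAMtools and counted reads over genes with SeqMonk, and the deposited table holds RPKM of 24888 genes per library. Multiplied by gene length, values are whole multiples of a smallest unit, from which reads and depth were recovered. This unit was taken as 1 read, and every gene had at least this value in every library. A value of 1 read may therefore stand for no measured read. No sample column of the table was unused. Whether counting used strand is not stated. Raw counts were not used here, and log2(RPKM + 0.1) was fitted with limma 3.58.1 in R 4.3.3 (eBayes with trend, 1 mean for each of 10 groups, 20 libraries treated as independent, 10 residual and 3.14 prior degrees of freedom). P-values were adjusted by Benjamini-Hochberg over the 2980 genes with a WT mean over 3 RPKM at any time point, at a threshold of 0.05. Tables and plots were made with Python 3.11.15, pandas 2.3.3, numpy 2.4.6 and matplotlib 3.10.9.

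Both genotypes carry replicate numbers 1 and 2. Across genes, which are not independent, the distances from the group mean correlated at 0.14 to 0.47 between libraries of equal number and different genotype at the 5 time points, so the numbers were taken to pair the libraries and a fit with the number as a block was also made. Within a genotype the same numbers form a time course, whose distances correlated over time at 0.45 to 0.78 (WT) and 0.13 to 0.60 (libraries labelled *Rel*-/-), and libraries treated as independent may give too many degrees of freedom.

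Named genes are the members described and *Rel*; the 5 tested genes most correlated with *Il4i1* and those among the 3 most correlated with each other tested member; the 3 genes with the highest WT mean of each pathway list and any called between genotypes; overlapping genes and most nearest genes; and the most abundant gene of each marker list. The marker lists are macrophage, dendritic cell, B cell, T and NK cell, neutrophil, mast cell and basophil, erythroid and fibroblast. The pathway lists are arginine transport, nitric oxide and citrulline, polyamines and proline, tetrahydrobiopterin, itaconate and citric acid cycle, amino acid oxidases and tryptophan, and the aryl hydrocarbon receptor. Members and lists were chosen with earlier results of these data known. Alternatives were pseudocounts of 0.01 and 1 RPKM, thresholds of 1 RPKM, of none or of 3 RPKM in either genotype, rescaling by the median ratio, quantile normalization, no trend, only the libraries compared, a replicate block, a time-course block, and each library or time course left out; they were run for the members and for counts over all genes. Promoter sequences come from RefSeq (GRCm38.p6).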

Additional observations from a re-analysis of the deposited data

How the results depend on the processing

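Over the 17 comparisons of the 5 tested members, 910 of 935 values under the settings planned for all libraries kept their direction and their side of the threshold, 11 lost a call, 4 gained one and 10 reversed. With a library or a whole time course left out, 548 of 680 did, 36 lost a call, 5 gained one and 91 reversed. Leaving out whole time courses was chosen after seeing the data. A lone library left in a group is assumed to vary like the other groups.

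With the replicate block, which uses the pairing of the replicate numbers, 1 member (*Il4i1*) instead of 0 was called between genotypes at 6 h, and the block changed no other call of a member. Without an expression threshold the count at 6 h was also 1. With only the libraries compared, a fit with fewer libraries by construction, 0 members were called between genotypes at 1 h and 0 at 2 h, and in WT 0 at 0.5 h, 2 at 1 h and 3 at 6 h. With a time-course block the count was 0 at 1 h between genotypes and 1 (*Il4i1*) for the difference of induction at 2 h. The cause of the changes with the thresholds and blocks was not tested. With libraries or time courses left out, some calls of members between genotypes were gained and others lost. Some calls in libraries labelled *Rel*-/- over 0 h were lost. These fits hold fewer libraries, and the counts over all genes also moved in them, as given below.

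Of the 101 reversed values, 9 were of *Il4i1*, 26 of *Nos2*, 19 of *Acod1*, 27 of *Gch1* and 20 of *Slc7a2*, and 0 were called after reversing. Ranges over the fits with libraries left out follow for the reported results that reversed. *Il4i1* between genotypes at 0 h ranged from −0.79 to 0.0269, in libraries labelled *Rel*-/- at 6 h over 0 h from −0.34 to 0.64, and in its difference of induction at 0.5 h from −0.48 to 0.33. *Nos2* at 0.5 h over 0 h ranged from −0.28 to 0.75 in WT and −0.34 to 0.83 in libraries labelled *Rel*-/-, and was −0.0359 and −0.0395 with quantile normalization. *Acod1* between genotypes ranged from −1.73 to 0.97 at 0 h and −0.14 to 1.24 at 0.5 h. *Gch1* between genotypes ranged from −0.73 to 0.77, −0.19 to 0.86, −0.14 to 0.94, −0.25 to 0.53 and −0.0375 to 0.46 from 0 to 6 h, and at 0 h was −0.0302 with a pseudocount of 1 RPKM, −0.0547 with rescaling and −0.103 with quantile normalization. *Slc7a2* between genotypes ranged from −0.55 to 0.25 at 2 h and −0.0682 to 0.46 at 6 h, and in libraries labelled *Rel*-/- at 0.5 h over 0 h from −0.0586 to 0.23, with −0.31 under quantile normalization. The cause was not tested.

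Counts over all genes, in the order 0, 0.5, 1, 2 and 6 h between genotypes, were 0, 4, 29, 25 and 1. They moved by over 1.5 times to 21 (0.5 h) and 4 (6 h) with a pseudocount of 1 RPKM; to 19, 68 and 2 (0.5, 1 and 6 h) with a threshold of 1 RPKM; to 98, 68, 126, 100 and 115 with none; to 16 and 47 (0.5 and 1 h) with the threshold in either genotype; to 16 and 14 (2 h) with rescaling and quantile normalization; to 0 at 0.5 to 6 h with only the libraries compared; to 20, 47 and 4 (0.5, 1 and 6 h) with the replicate block; and to 16 and 14 (1 and 2 h) with the time-course block. Without the whole WT replicate 1 they were 151, 234, 332, 94 and 6, without WT replicate 2 they were 2, 117, 537, 218 and 240, and without either time course of the libraries labelled *Rel*-/- 0 at 0.5 to 6 h. Without single libraries they ranged from 0 to 2, 0 to 4, 1 to 33, 1 to 18 and 0 to 1. Rescaling moved the share called higher at 0.5 h from 0% of 4 genes to 16.7% of 6.

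Over 0 h the counts in WT, in the order 0.5, 1, 2 and 6 h, were 919, 1079, 1355 and 918, and in libraries labelled *Rel*-/- 879, 1013, 1479 and 1260. With a threshold of 1 RPKM they were 3260, 3256, 3158 and 2428, and 3169, 3071, 3526 and 3644. With none they were 5856, 6477, 5581 and 4616, and 6211, 6819, 6707 and 7493. With only the libraries compared WT had 89, 85, 580 and 180, and the libraries labelled *Rel*-/- 1426 at 0.5 h and 1914 at 6 h. The time-course block gave 1457 (0.5 h) and 1579 (6 h) in WT and 1426 (0.5 h) and 1526 (1 h) in libraries labelled *Rel*-/-. Without their whole replicate 1 the libraries labelled *Rel*-/- had 46, 35, 165 and 40, and without replicate 2 they had 49, 58, 153 and 86. Without single libraries WT ranged from 737 to 1246 at 2 h and 378 to 781 at 6 h, and the libraries labelled *Rel*-/- from 382 to 682, 546 to 819, 891 to 1161 and 598 to 741.

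For the difference of induction, the count over all genes was 0 at each time. It was 2 and 1 (0.5 and 6 h) with a pseudocount of 1 RPKM, 3 and 3 (0.5 and 1 h) with a threshold of 1 RPKM, 7, 23, 30 and 62 with none, 2 at 0.5, 1 and 2 h without the trend, and 4, 9 and 14 (0.5 to 2 h) with the time-course block. It was 5, 13, 20 and 4 without the whole WT replicate 1, 16 and 11 (1 and 2 h) without WT replicate 2, and 0 to 3 without single libraries.

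Rescaling moved the median of all genes by over 0.1 on the log2 scale between genotypes at 1 h (0.15 to 0.05), in WT at 0.5, 1 and 2 h (−0.33 to −0.15, −0.18 to −0.05 and −0.21 to −0.08) and in libraries labelled *Rel*-/- at 0.5, 1, 2 and 6 h (−0.28 to −0.12, −0.10 to 0.01, −0.28 to −0.07 and −0.18 to −0.03). Quantile normalization moved it at 1 h between genotypes (0.15 to 0.04) and in WT at 0.5 h (−0.33 to −0.22). Depth limits *Mir455*, at 1 to 11 reads.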
